A study of Mus musculus with 12 samples.

Results

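The 7 genes that encode the inhibitors of cyclin-dependent kinases were followed across 4 sorted populations of cancer-associated fibroblasts (CAFs) from mouse mammary tumours. They were taken by gene name from a table of 55487 genes: Cdkn2a, Cdkn2b, Cdkn2c and Cdkn2d form the INK4 family, and Cdkn1a, Cdkn1b and Cdkn1c form the CIP/KIP family. The cells came from tumours of untreated FVB mice aged 10 weeks that carry MMTV-PyMT, in which the mammary epithelium makes polyoma middle T antigen from the promoter of a mammary tumour virus. From each of 3 mice, live PDGFRb+ cells free of the leukocyte, endothelial and epithelial surface markers CD45, CD31 and EPCAM were sorted into 4 gates, and 1 bulk RNA library was made per gate and mouse, 12 in all. The m2cafpos gate held cells that lacked Ly6C and CD146, carried PDGFRa and carried NCAM. The m2cafneg gate had the same surface profile without NCAM. The icaf gate held cells positive for Ly6C, and the vcaf gate held cells with CD146 and without Ly6C or PDGFRa. No normal mammary fibroblasts or untransformed tissue are compared here, so each value is set against another tumour gate. The libraries are named below by gate and by mouse (27, 30 and 31).

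Cyclin-dependent kinases drive the cell cycle when bound to a cyclin. INK4 proteins bind CDK4 and CDK6 and keep them from D-type cyclins, which leaves the RB protein active and holds cells in G1. CIP/KIP proteins bind assembled cyclin–CDK complexes of more kinds. In fibroblasts several of these inhibitors accumulate in senescence, quiescence and contact inhibition.

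Library totals were 43898839 to 55363203 reads, so that 1 read was worth 0.0181 to 0.0228 CPM, the read count scaled to a library total of 1000000. The gates carried the transcripts they were sorted on: Ncam1 averaged 585 CPM in m2cafpos, 31.1 in m2cafneg, 96.5 in icaf and 18.2 in vcaf libraries, and Mcam, which encodes CD146, averaged 4.16, 9.82, 3.44 and 269 CPM in the same order. The summed level of 10 pericyte markers lay between 36023 and 57807 CPM in vcaf libraries, against at most 578 CPM in any library of the other gates. RNA of marker genes of cell types that the sort removed was present. The sum of 16 epithelial markers, led by Csn3 and Krt18, was 643 to 2766 CPM in m2cafpos, 5547 to 11697 in m2cafneg, 1030 to 2791 in icaf and 7758 to 15474 in vcaf libraries, and no marker was at 0 in every library of a gate. The sum of 12 macrophage markers was likewise higher in m2cafneg and vcaf, at 180, 769, 150 and 1059 CPM on average in the same order of gates, and 12 endothelial markers summed to 234, 527, 387 and 1517 CPM. Different genes led the endothelial sum by gate: Eng and Plvap in both m2caf gates, Tek (165 CPM) and Eng in icaf, Esam (557 CPM) and Eng in vcaf. This sum is therefore no plain measure of endothelial RNA. Pecam1, which encodes CD31, averaged 7.77, 40.0, 8.99 and 69.4 CPM. The composition of the libraries also differed. On the deposited CPM scale the median log2 fold change of all tested genes was -0.23 for m2cafpos over m2cafneg, -0.11 for m2cafpos over icaf, -0.51 for m2cafpos over vcaf, 0.12 for m2cafneg over icaf, -0.26 for m2cafneg over vcaf and -0.36 for icaf over vcaf. Rescaling by the trimmed mean of M values (TMM) or by the median of ratios brought each of these medians close to 0. Values below are on the CPM scale and are given with the rescaled result where that changes a call. Some fits also held the epithelial sum as a covariate, and fewer genes of any kind then passed by limma in several pairs. The share of all genes fell from 26.1% to 1.35% for m2cafpos against m2cafneg and from 29.7% to 3.51% for m2cafneg against icaf. It fell from 67.9% to 27.6% for m2cafpos against vcaf and from 59.9% to 20.2% for icaf against vcaf. Calls lost with the covariate are to be read beside these shares.

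Sequences of the promoters are shown for the 2 neighbouring INK4 genes whose levels moved together and for the most abundant member of the family. Each is the 250 bases before a start site in RefSeq's GRCm38.p6 annotation, written 5′ to 3′ on the gene's strand, with the motif that was found in capitals. Windows were found for 6 of the 7 genes.
Cdkn2b, start 89311032, chr4:89311033-89311282, minus strand: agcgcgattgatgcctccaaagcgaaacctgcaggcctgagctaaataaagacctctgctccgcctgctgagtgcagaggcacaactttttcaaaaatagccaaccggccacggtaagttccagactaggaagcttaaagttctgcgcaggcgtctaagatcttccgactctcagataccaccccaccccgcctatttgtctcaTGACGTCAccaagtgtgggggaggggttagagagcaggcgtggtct
Cdkn2a, start 89282192, chr4:89282193-89282442, minus strand: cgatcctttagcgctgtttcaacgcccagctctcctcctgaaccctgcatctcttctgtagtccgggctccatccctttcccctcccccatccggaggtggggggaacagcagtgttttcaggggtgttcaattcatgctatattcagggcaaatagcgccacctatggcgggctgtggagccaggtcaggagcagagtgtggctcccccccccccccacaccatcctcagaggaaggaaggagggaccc
Cdkn2a, start 89294619, chr4:89294620-89294869, minus strand: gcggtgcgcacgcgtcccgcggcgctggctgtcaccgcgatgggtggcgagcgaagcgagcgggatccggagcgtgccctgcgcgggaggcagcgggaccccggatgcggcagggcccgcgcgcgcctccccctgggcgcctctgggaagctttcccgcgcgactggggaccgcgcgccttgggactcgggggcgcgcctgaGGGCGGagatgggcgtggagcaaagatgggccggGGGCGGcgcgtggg
Cdkn1a, start 29090979, chr17:29090729-29090978, plus strand: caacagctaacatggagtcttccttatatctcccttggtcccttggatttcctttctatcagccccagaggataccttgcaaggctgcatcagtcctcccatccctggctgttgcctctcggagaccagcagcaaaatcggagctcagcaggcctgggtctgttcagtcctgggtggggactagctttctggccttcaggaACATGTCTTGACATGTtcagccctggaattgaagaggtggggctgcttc
The capitals in Cdkn2b mark TGACGTCA, the cyclic AMP response element, which reads the same on both strands and begins 46 bases before the start. It was found in 1.55% of the 32817 windows of all genes. The capitals in the second Cdkn2a window mark GGGCGG, the core of a GC box, at 48 and 14 bases before the start, a motif found on either strand in 32.7% of windows. The capitals in Cdkn1a mark ACATGT, 4 bases of any kind and ACATGT again, a pair of elements of the p53 type that begins 49 bases before the start and was found on either strand in 0.0122% of windows. None of these motifs overlaps another. The first Cdkn2a window held neither these motifs nor TATAAA. The windows of Cdkn2a differed in CpG content, with 7 CpG dinucleotides before start 89282192 and 40 before start 89294619, the latter more than in 98.7% of windows. Cdkn2b had 12 and this Cdkn1a window 2, against a median of 6. A window before another Cdkn1a start, 29093769, held 19 CpG and GGGCGG at 104 and 46 bases before that start. The motifs were picked with these sequences in view, and a match describes letters, not an occupied site.

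Cdkn2b was the member that separated the gates most. It encodes p15, an INK4 protein known as a target of TGF-beta signalling, and lies at chr4:89306299-89311039 on the minus strand (GRCm38). Its level in m2cafpos libraries was 86.7 CPM in mouse 27, 78.0 in mouse 30 and 83.3 in mouse 31. The m2cafneg libraries of the same mice had 71.6, 46.6 and 61.4 CPM. The icaf libraries had 5.38, 3.24 and 11.3 CPM, and the vcaf libraries 6.23, 6.23 and 5.29 CPM. Every library of the 2 PDGFRa-sorted m2caf gates was thus above every icaf and vcaf library, and icaf and vcaf libraries overlapped. The ratio of mean CPM was 12.5 for m2cafpos over icaf, 14.0 for m2cafpos over vcaf, 9.03 for m2cafneg over icaf and 10.1 for m2cafneg over vcaf. By limma on log2(CPM + 1) with Benjamini-Hochberg adjustment over the 15456 genes tested, these were log2 fold changes of 3.59, 3.60, 3.11 and 3.12, each with a standard error of 0.29, and adjusted p of 4.37e-06, 8.79e-07, 2.14e-05 and 4.55e-06. The 3 mice showed the same direction in each of the 4 comparisons. In bulk RNA, fewer cells that express a gene and less RNA per cell cannot be told apart. Between the m2caf gates, Cdkn2b was higher in m2cafpos than in m2cafneg in all 3 mice and the libraries did not overlap, but the log2 difference of 0.48 did not pass the test (95% interval -0.16 to 1.12, adjusted p = 0.248 by limma). For icaf over vcaf the log2 difference was 0.01 (adjusted p = 0.989 by limma). The epithelial sum is low in m2cafpos and icaf and high in m2cafneg and vcaf libraries. With this sum as a covariate the 4 differences of m2caf gates from icaf and vcaf passed. Their adjusted p were 1.66e-06, 0.000113, 0.00947 and 2.02e-06 by limma, in the order of the ratios above. The sum differs by gate, and whether epithelial RNA bears on the Cdkn2b levels was not tested.

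**Figure D1:**
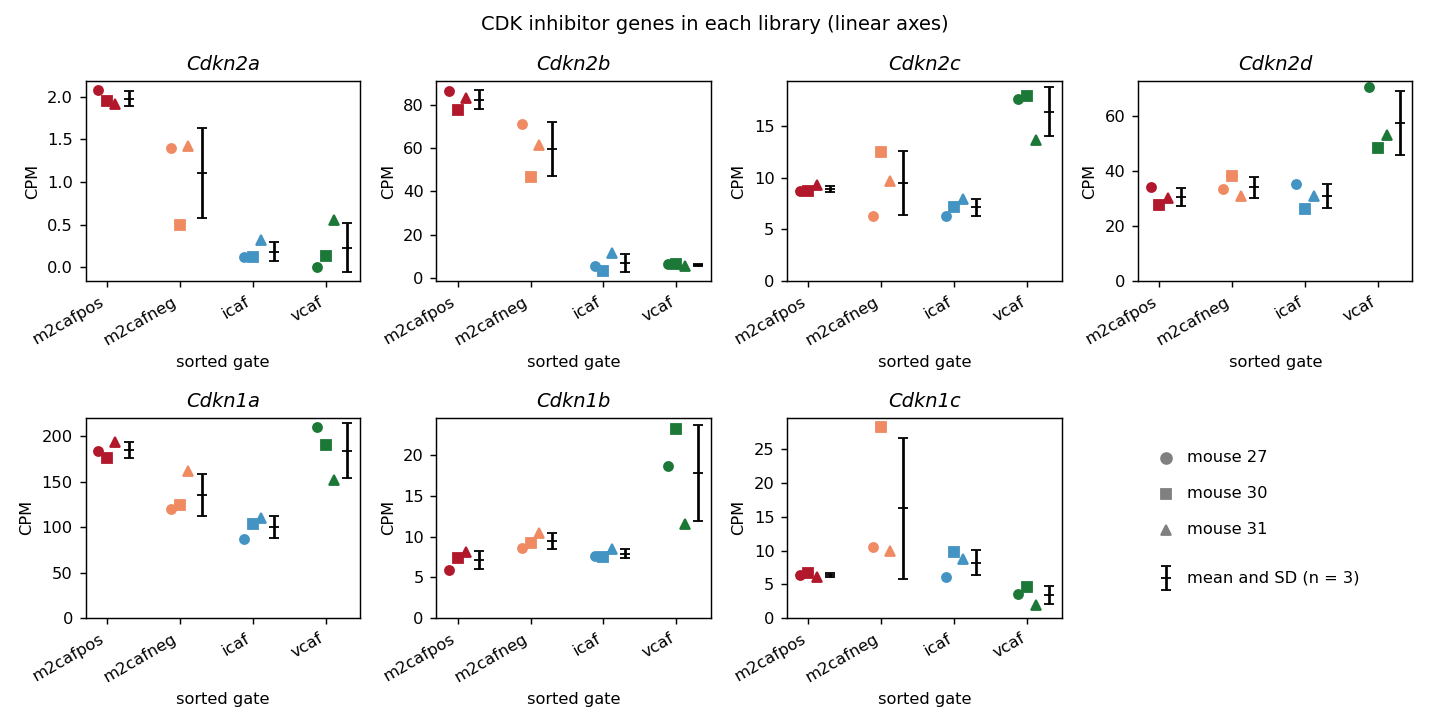
CPM of each of the 7 genes (vertical axis, linear, own scale per panel) in the 12 libraries by gate (horizontal axis: m2cafpos, m2cafneg, icaf, vcaf). Points are libraries and bars are the mean and SD of 3 libraries; Cdkn2b stands at 46.6 CPM or more in every m2caf library and at 11.3 or less in every icaf and vcaf library.

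Cdkn2a was also higher in the m2caf gates than in icaf and vcaf, at a lower level than Cdkn2b. The row sums 2 transcripts with different first exons, one for the INK4 protein p16 and one for ARF, which acts on the p53 pathway, so the products cannot be separated. The gene spans chr4:89274471-89294653 on the minus strand, 11645 bases from Cdkn2b. The m2cafpos libraries held 115, 105 and 84 reads (2.08, 1.95 and 1.91 CPM in mice 27, 30 and 31). The m2cafneg libraries held 64, 22 and 75 reads (1.39, 0.495 and 1.42 CPM). The icaf libraries held 6, 6 and 16 reads, and the vcaf libraries 0, 7 and 28. A count of 0 in the vcaf library of mouse 27 allows up to 0.0601 CPM. All m2cafpos libraries lay above all others, while the m2cafneg library of mouse 30 fell below the highest vcaf library. The mean was 1.98 ± 0.0866 CPM in m2cafpos, 1.10 ± 0.528 in m2cafneg, 0.183 ± 0.116 in icaf and 0.226 ± 0.287 in vcaf libraries (SD, n = 3 each), a ratio of 10.8 for m2cafpos over icaf and 8.75 for m2cafpos over vcaf. On the log2(CPM + 1) scale, which understates folds at such levels, m2cafpos exceeded icaf by 1.34 (SE 0.22, adjusted p = 0.000678 by limma) and vcaf by 1.31 (SE 0.22, adjusted p = 0.000237 by limma). The m2cafneg gate exceeded icaf by 0.80 (adjusted p = 0.0148) and vcaf by 0.77 (adjusted p = 0.0154), both by limma and with SE 0.22. These last calls were lost with edgeR on the reads (adjusted p of 0.0637 and 0.0578 with TMM). With the epithelial sum as a covariate, the difference of m2cafneg from icaf was 0.35 (adjusted p = 0.677 by limma). By limma, the call over icaf was also lost without the m2cafneg library of mouse 27 or 31 or the icaf library of mouse 27 or 30, and that over vcaf without the m2cafneg or the vcaf library of mouse 27, with adjusted p between 0.0519 and 0.0683. For m2cafpos over m2cafneg the log2 difference of 0.54 did not pass on the CPM scale (adjusted p = 0.0853 by limma) and passed after TMM scaling (0.71, adjusted p = 0.0331). Cdkn2a passed the filter of 1 CPM in 3 libraries through m2caf libraries alone, so its tests against icaf and vcaf are given as a description.

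Across the 12 libraries Cdkn2a and Cdkn2b had a Pearson r of 0.914 on log2(CPM + 1), the highest of any pair of members, given as a description over libraries that share mice and gates. Mtap, which encodes a methionine salvage enzyme and is the next named gene on the Cdkn2a side, 93389 bases away, averaged 38.8 ± 1.35 CPM in m2cafpos, 38.4 ± 4.49 in m2cafneg, 33.4 ± 4.87 in icaf and 50.0 ± 5.84 in vcaf libraries (SD, n = 3 each). On unscaled CPM the Mtap mean was highest in vcaf, where Cdkn2a and Cdkn2b were low. The TMM factors, by which CPM is divided, were 0.849 to 0.852 in m2cafpos and 1.21 to 1.25 in vcaf libraries, so this order depends on the scaling. On the other side, Dmrta1 lay 368396 bases from Cdkn2b and was listed at 0 in every library outside m2cafneg, where it averaged 0.461 CPM.

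Cdkn2c and Cdkn2d were highest in vcaf. Cdkn2c encodes p18 and lies at chr4:109660876-109667189 on the minus strand. Its level was 8.74, 8.71 and 9.27 CPM in m2cafpos, 6.33, 12.4 and 9.69 in m2cafneg, 6.31, 7.14 and 7.96 in icaf and 17.5, 17.9 and 13.7 in vcaf libraries of mice 27, 30 and 31. Every vcaf library was above every other library. The log2 fold change was -0.80 for m2cafpos over vcaf, -0.76 for m2cafneg over vcaf and -1.09 for icaf over vcaf, each with SE 0.21 (adjusted p of 0.00437, 0.0126 and 0.000694 by limma). Cdkn2d encodes p19, an INK4 protein distinct from ARF, and lies at chr9:21288410-21291407 on the minus strand. It stood at 34.1, 27.6 and 30.3 CPM in m2cafpos, 33.3, 38.1 and 30.8 in m2cafneg, 35.2, 26.3 and 30.9 in icaf and 70.3, 48.3 and 53.0 in vcaf libraries. The first 3 gates overlapped one another and all lay below vcaf. The log2 fold changes over vcaf were -0.86 for m2cafpos, -0.72 for m2cafneg and -0.86 for icaf, each with SE 0.16 (adjusted p of 0.000449, 0.00378 and 0.000540 by limma). No pair among m2cafpos, m2cafneg and icaf passed the test for either gene, with log2 differences between -0.15 and 0.33, except that Cdkn2c in m2cafneg over icaf passed without the m2cafneg library of mouse 27 (0.56, adjusted p = 0.0366 by limma). Library scaling weighed on both genes. After TMM scaling the differences of m2cafpos and m2cafneg from vcaf no longer passed, at -0.30 and -0.50 for Cdkn2c (adjusted p of 0.259 and 0.105 by limma) and -0.34 and -0.44 for Cdkn2d (adjusted p of 0.102 and 0.0594 by limma), while icaf was lower than vcaf for both. The F test was then missed by both genes (adjusted p of 0.0502 and 0.0715 by limma). The sums of epithelial and endothelial markers are also highest in vcaf. With the epithelial sum as a covariate, Cdkn2d passed in its 3 comparisons with vcaf (adjusted p of 0.0346, 0.00454 and 0.0385 by limma), and Cdkn2c in that of m2cafneg alone (adjusted p = 0.0164). Cdkn2c then had log2 fold changes of -0.82 for m2cafpos and -1.11 for icaf over vcaf (adjusted p of 0.149 and 0.0652 by limma), close to those without the covariate. The part of the endothelial markers was not tested.

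Cdkn1a encodes p21, the inhibitor induced by p53, and was the most abundant member in CPM. It lies at chr17:29090976-29100727 on the plus strand and overlaps an opposite-strand model, AC167363.2, that averaged 0.593 CPM. Its level was 184, 176 and 193 CPM in m2cafpos, 120, 124 and 162 in m2cafneg, 87.2, 103 and 110.4 in icaf and 210.1, 190.0 and 151 in vcaf libraries of mice 27, 30 and 31. The icaf libraries lay below those of every other gate. The m2cafpos libraries lay above all m2cafneg libraries and overlapped vcaf. Cdkn1a was higher in m2cafpos than in icaf by a log2 fold change of 0.88 (SE 0.15, adjusted p = 0.000803 by limma) and lower in icaf than in vcaf, at -0.86 (SE 0.15, adjusted p = 0.000321 by limma). The difference of icaf from vcaf was -0.46 after TMM scaling (adjusted p = 0.0166 by limma) and -0.66 with the epithelial sum as a covariate, where it did not pass (adjusted p = 0.105 by limma). The smaller differences were 0.46 for m2cafpos over m2cafneg, 0.42 for m2cafneg over icaf and -0.44 for m2cafneg over vcaf (SE 0.15, adjusted p of 0.0375, 0.0460 and 0.0323 by limma). For m2cafpos over vcaf the log2 difference was 0.02 (adjusted p = 0.926 by limma), with 1 of 3 mice higher in m2cafpos. After TMM scaling that difference became 0.55 and passed (adjusted p = 0.00595), and the 2 differences of m2cafneg from icaf and vcaf were lost (adjusted p of 0.131 and 0.4605 by limma). The call for m2cafpos over m2cafneg was lost without any 1 of the m2cafpos libraries or without the m2cafneg library of mouse 27 or 30, with adjusted p up to 0.110. That for m2cafneg over vcaf was lost without the m2cafneg or the vcaf library of mouse 27 or 30 (up to 0.125), and that for m2cafneg over icaf passed in 4 of the 12 fits that left out 1 library. With the epithelial covariate the differences of m2cafpos from m2cafneg (0.64, adjusted p = 0.204) and of m2cafneg from icaf (0.25, adjusted p = 0.676) did not pass by limma.

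Cdkn1b encodes p27, which accumulates in resting cells and is removed by the SKP2 ubiquitin ligase. It lies at chr6:134920401-134925513 on the plus strand. Its level was 5.85, 7.40 and 8.09 CPM in m2cafpos, 8.58, 9.22 and 10.5 in m2cafneg, 7.67, 7.45 and 8.51 in icaf and 18.7, 23.2 and 11.5 in vcaf libraries. The vcaf libraries lay above all others, with mouse 31 the lowest of them. The log2 fold changes over vcaf were -1.17 for m2cafpos, -0.80 for m2cafneg and -1.03 for icaf, each with SE 0.22 (adjusted p of 0.000524, 0.0128 and 0.00145 by limma). After TMM scaling the difference of m2cafpos from vcaf was -0.68 and passed (adjusted p = 0.0222 by limma), that of icaf was -0.66 and passed (adjusted p = 0.0249), and that of m2cafneg did not pass (-0.54, adjusted p = 0.0926). With the epithelial sum as a covariate the difference of icaf from vcaf was -1.13 and did not pass (adjusted p = 0.0735 by limma). The call for m2cafneg over vcaf was also lost when the vcaf library of mouse 30 was left out (adjusted p = 0.0519 by limma). The other 3 pairs of gates did not pass, with log2 differences between -0.37 and 0.23.

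Cdkn1c encodes p57, an imprinted growth inhibitor expressed from the maternal copy. It lies at chr7:143458339-143461050 on the minus strand. Unlike Cdkn1b, it was lowest in vcaf, and it was highest in m2cafneg. The values were 6.32, 6.69 and 6.15 CPM in m2cafpos, 10.6, 28.4 and 9.99 in m2cafneg, 6.12, 9.75 and 8.79 in icaf and 3.54, 4.66 and 2.00 in vcaf libraries. The m2cafneg libraries lay above all others and the vcaf libraries below all others, while m2cafpos and icaf overlapped. The m2cafneg library of mouse 30 stood far above the other 2 of its gate. Cdkn1c was higher in m2cafneg than in vcaf by 1.87 and in icaf than in vcaf by 1.09 (log2, SE 0.35, adjusted p of 0.00126 and 0.0161 by limma). It was lower in m2cafpos than in m2cafneg by a log2 fold change of -1.07 (SE 0.35, adjusted p = 0.0390 by limma), which became -0.61 and did not pass without the m2cafneg library of mouse 30 (adjusted p = 0.117), and became -0.84 after TMM scaling (adjusted p = 0.127). It also did not pass without any 1 of the m2cafpos libraries (adjusted p up to 0.0988 by limma). The call for icaf over vcaf was lost without the icaf library of mouse 30 or the vcaf library of mouse 31 (adjusted p of 0.0572 and 0.0705 by limma). With the epithelial sum as a covariate it was 0.50 (adjusted p = 0.598 by limma), and the call for m2cafpos over m2cafneg was lost too, at -1.60 (adjusted p = 0.173 by limma). For m2cafpos over vcaf the log2 difference was 0.80 (adjusted p = 0.0578 by limma), and for m2cafneg over icaf it was 0.77 (adjusted p = 0.114 by limma). With the mouse as a block both passed (adjusted p of 0.0177 and 0.0397 by limma). The difference of m2cafpos from vcaf also passed after TMM scaling (1.22, adjusted p = 0.0138 by limma) and when the m2cafneg library of mouse 30 or 31 or the vcaf library of mouse 30 was left out.

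**Figure D2:**
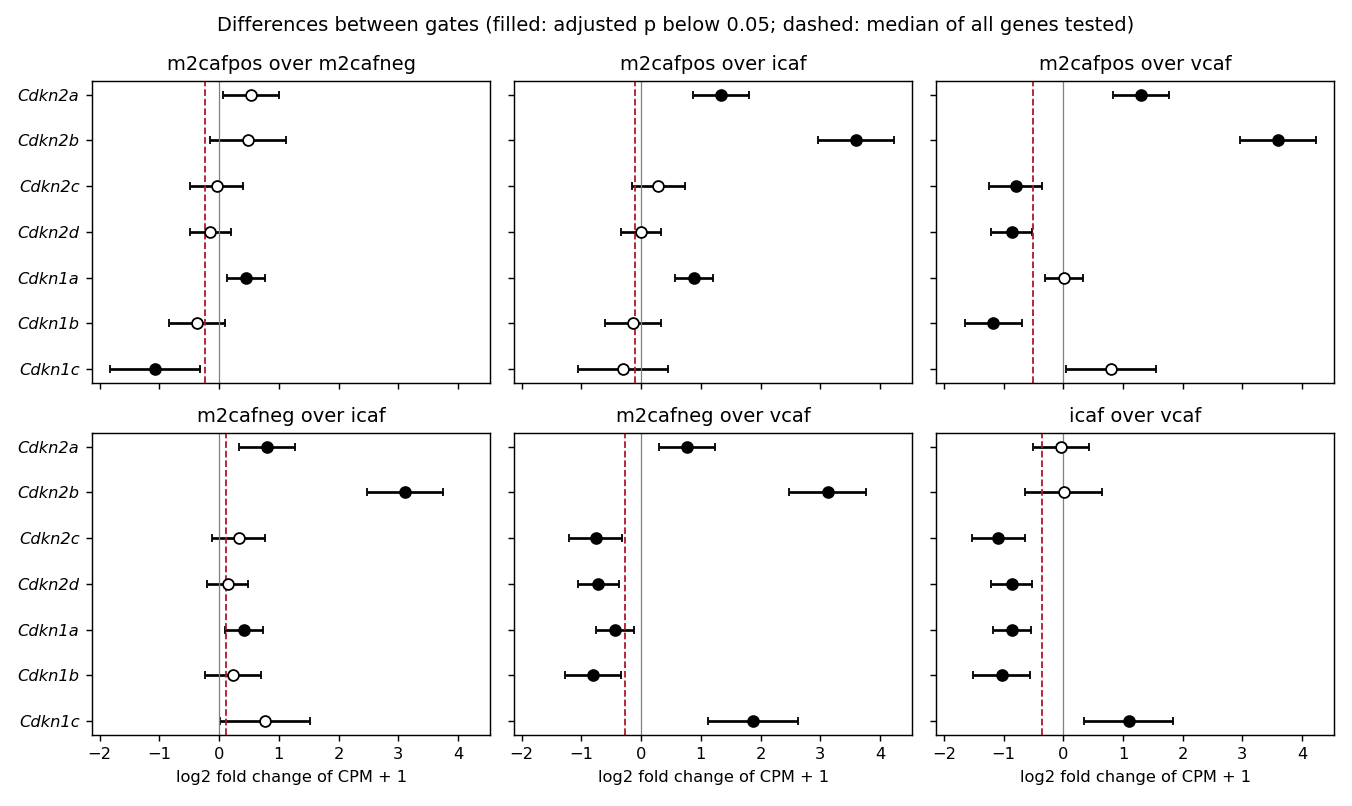
Log2 fold change of CPM + 1 (horizontal axis, first gate over second) for the 7 genes in the 6 pairs of gates, with 95% intervals and filled points where the adjusted p by limma is under 0.05. Cdkn2b lies beyond 3 in the 4 comparisons of an m2caf gate with icaf or vcaf, and no other member exceeds 2 in any pair.

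Over the family, the F test across the 4 gates called all 7 members, beside 73.0% of all genes tested. For m2cafpos against m2cafneg, 2 members passed, 1 higher and 1 lower, where 26.1% of all genes passed (3.51% higher and 22.6% lower). For m2cafpos against icaf, 3 members passed, all higher, beside 23.9% of all genes (8.86% higher and 15.0% lower). For m2cafneg against icaf, 3 passed, all higher, beside 29.7% (20.9% higher and 8.77% lower). The 3 genes in both comparisons with icaf were Cdkn1a, Cdkn2a and Cdkn2b. Since Cdkn2a passed the filter on low values through m2caf libraries alone, its place in the F test and its counts against icaf and vcaf are a description. For m2cafpos against vcaf, 2 members were higher and 3 lower, beside 67.9% of all genes (12.4% higher and 55.5% lower). For m2cafneg against vcaf, 3 were higher and 4 lower, beside 37.9% (11.3% higher and 26.6% lower). For icaf against vcaf, 1 was higher and 4 lower, beside 59.9% (13.9% higher and 46.1% lower). The median log2 fold change of the 7 genes was -0.04 for m2cafpos over m2cafneg, 0.29 over icaf and 0.02 over vcaf, 0.42 for m2cafneg over icaf and -0.44 over vcaf, and -0.86 for icaf over vcaf. After TMM scaling the F test called 5 members beside 56.1% of all genes. The genes called in a pair were then 16.8%, 21.4%, 46.4%, 29.8%, 25.5% and 48.5%, in the order used for the medians of all genes. Their split became more even, at 7.86% higher and 8.98% lower for m2cafpos against m2cafneg, 23.0% and 23.5% for m2cafpos against vcaf, 15.8% and 9.67% for m2cafneg against vcaf and 23.9% and 24.6% for icaf against vcaf. Against icaf it was 11.5% and 9.95% for m2cafpos and 16.8% and 13.0% for m2cafneg. The family then had 2 members higher in m2cafpos against m2cafneg, 3 higher in m2cafpos against icaf, 2 higher in m2cafneg against icaf, 4 higher and 1 lower in m2cafpos against vcaf, 3 higher in m2cafneg against vcaf, and 1 higher and 4 lower in icaf against vcaf.

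**Figure D3:**
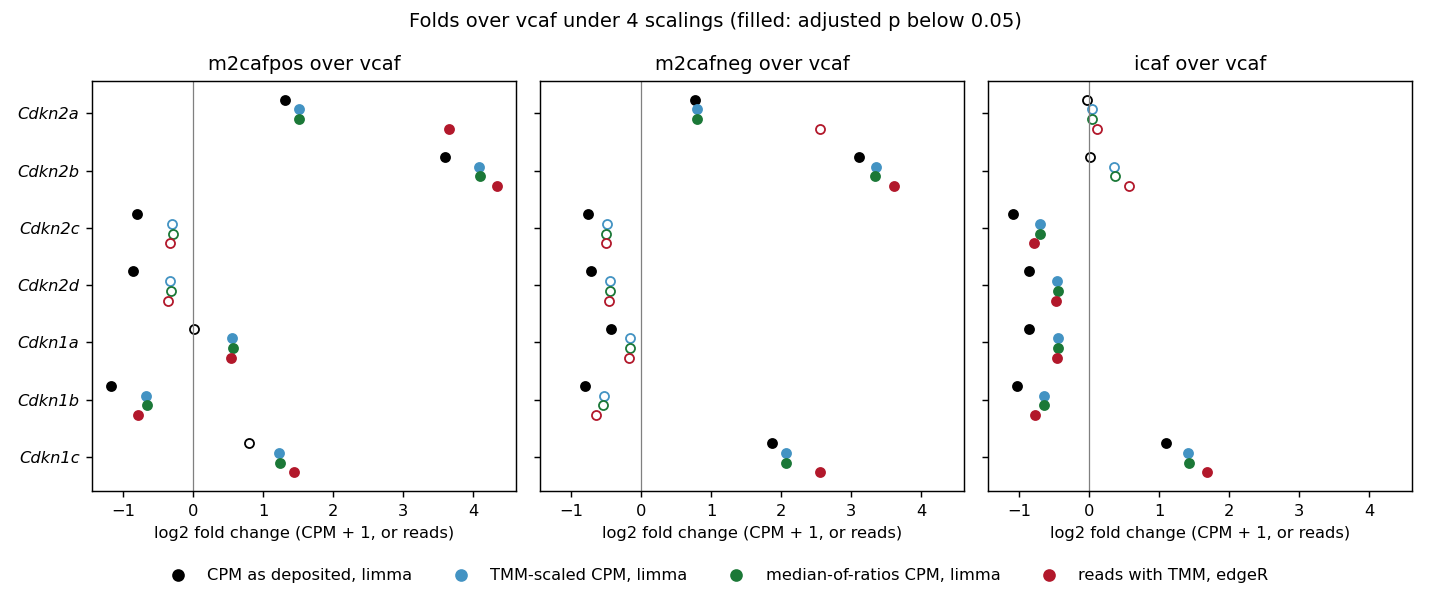
Log2 fold changes of the 7 genes (horizontal axis, first gate over second) in the comparisons with vcaf under 4 scalings, unscaled CPM, TMM, median of ratios and edgeR with TMM. The scaled values lie to the right of the unscaled ones in every panel, as for Cdkn1a in m2cafpos over vcaf, at 0.55 with TMM and 0.02 unscaled.

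Levels of different genes can be compared only per length of transcript, as CPM per kilobase of exon. The 7 genes summed to 140.6 ± 6.58 CPM per kilobase in m2cafpos, 117 ± 3.77 in m2cafneg, 61.2 ± 6.17 in icaf and 104 ± 15.8 in vcaf libraries (SD, n = 3 each). Cdkn2b made up 42.3% ± 0.612 of this sum in m2cafpos, 36.7% ± 7.27 in m2cafneg, 7.55% ± 3.98 in icaf and 4.11% ± 0.351 in vcaf libraries. Cdkn1a made up 36.9%, 32.4%, 46.2% and 49.6% in the same order of gates, so that Cdkn1a led the family in icaf and vcaf and Cdkn2b led in m2cafpos. In m2cafneg the order of these 2 genes differed between mice: Cdkn2b stood at 51.5, 33.6 and 44.2 CPM per kilobase and Cdkn1a at 33.7, 35.0 and 45.5 in mice 27, 30 and 31. Cdkn2d made up 13.8% in m2cafpos, 18.5% in m2cafneg, 32.2% in icaf and 34.9% in vcaf libraries. Cdkn1b, Cdkn1c, Cdkn2a and Cdkn2c each stayed under 10% on average. INK4 genes together held 59.7% ± 1.42 of the sum in m2cafpos, 59.0% ± 5.41 in m2cafneg, 44.3% ± 5.81 in icaf and 45.1% ± 3.87 in vcaf libraries.

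**Figure D4:**
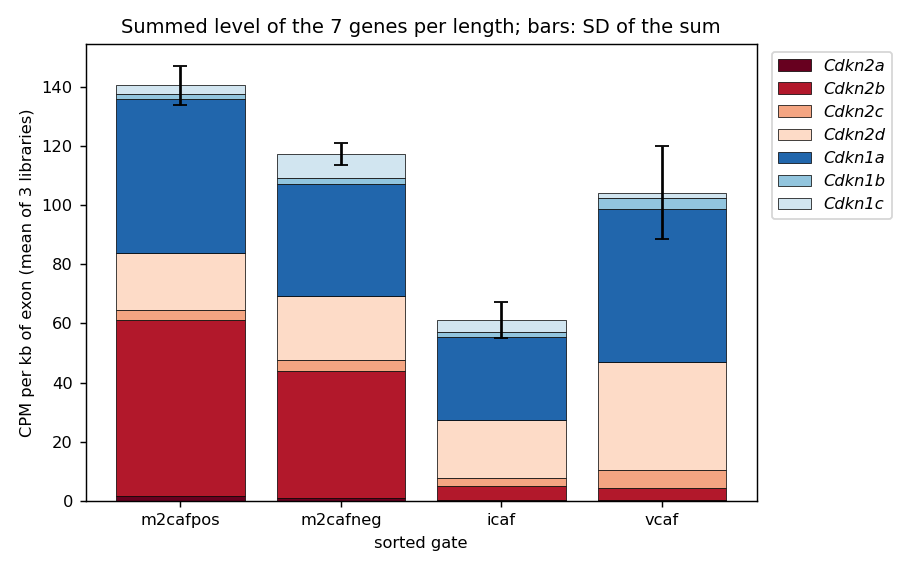
CPM per kilobase of exon of the 7 genes (vertical axis), stacked by gene, as means of 3 libraries for the 4 gates (horizontal axis). The stacks reach 140.6, 117, 61.2 and 104 from m2cafpos to vcaf, and the Cdkn2b layer is 59.5, 43.1, 4.77 and 4.26.

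On the CPM scale most of the listed kinases and cyclins, the partners of these proteins, were lower in each other gate than in vcaf. Of 12 listed CDK and cyclin genes, 11 passed the F test, beside 73.0% of all genes. In m2cafpos, m2cafneg and icaf 9, 8 and 9 were lower than in vcaf, beside 55.5%, 26.6% and 46.1% of all genes. After TMM scaling 7, 6 and 5 were lower, beside 23.5%, 9.67% and 24.6% of all genes. In m2cafpos and in icaf 1 was then higher, beside 23.0% and 23.9%. Cdk6, a kinase bound by INK4 proteins, averaged 66.5 ± 12.3 CPM in m2cafpos, 58.6 ± 17.8 in m2cafneg, 52.0 ± 15.4 in icaf and 284 ± 64.6 in vcaf libraries (SD, n = 3 each). Ccnd1, a D-type cyclin, averaged 14.0, 38.7, 19.4 and 131 CPM in the same order. Ccnd2, another D-type cyclin, did not have this pattern. It averaged 477 ± 41.9 CPM in m2cafpos, 247 ± 86.8 in m2cafneg, 169 ± 49.9 in icaf and 456 ± 115 in vcaf libraries, and was higher in m2cafpos than in m2cafneg and than in icaf, by 1.0 and 1.53 on the log2 scale (adjusted p of 0.0177 and 0.00110 by limma). With the epithelial covariate the difference from m2cafneg did not pass (adjusted p = 0.281 by limma). With the epithelial sum as a covariate 3, 8 and 2 of the 12 were lower than in vcaf, beside 20.7%, 25.6% and 13.6% of all genes. Cdk2 averaged 19.7, 26.5, 24.4 and 38.8 CPM, and its differences from vcaf were lost with median-of-ratios scaling.

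Downstream of the kinases, 9 of 11 genes of the RB and E2F families passed the F test, near the 73.0% of all genes. In m2cafpos against vcaf 7 were lower and 1 higher, beside 55.5% and 12.4% of all genes. After TMM scaling 5 were lower and 2 higher, beside 23.5% and 23.0%. Rb1, the pocket protein that the kinases phosphorylate, averaged 2.17 ± 0.764 CPM in m2cafpos, 7.78 ± 4.22 in m2cafneg, 2.44 ± 0.972 in icaf and 12.5 ± 3.86 in vcaf libraries (SD, n = 3 each). Rb1 was lower in m2cafpos than in m2cafneg and than in vcaf, at log2 fold changes of -1.38 and -2.09 (adjusted p of 0.0143 and 0.000252 by limma). Neither passed with the epithelial sum as a covariate (adjusted p of 0.643 and 0.185 by limma). The means of E2f1, a transcription factor held by RB, ran the other way at 20.9 ± 1.09, 13.2 ± 1.63, 29.4 ± 7.0 and 8.63 ± 3.25 CPM in the same order of gates. E2f1 did not pass by limma for m2cafpos over m2cafneg, m2cafpos over icaf or m2cafneg over vcaf (adjusted p of 0.0799, 0.221 and 0.0626). With median-of-ratios scaling the first and last of these passed (0.0294 and 0.0211). With the epithelial covariate only icaf over vcaf passed (0.0185). Rbl1, a relative of Rb1, averaged 2.00, 4.21, 3.92 and 6.73 CPM, and E2f8, a repressor of the family, 0.654, 1.12, 0.885 and 3.73 CPM. Of 12 genes of S and M phase, 12 passed the F test, beside 73.0% of all genes. In m2cafpos, m2cafneg and icaf 12, 9 and 11 were lower than in vcaf, beside 55.5%, 26.6% and 46.1% of all genes. After TMM scaling 10, 2 and 8 were lower, beside 23.5%, 9.67% and 24.6%. With the epithelial sum as a covariate, 0, 8 and 1 were lower by limma, beside 20.7%, 25.6% and 13.6% of all genes. In m2cafpos 3 of the 12 were then lower at an unadjusted p under 0.05. Without the covariate the median log2 fold change of the 12 was -1.70 for m2cafpos over vcaf, -1.16 for m2cafneg and -1.61 for icaf. Mcm6, a replication helicase subunit, averaged 15.8 ± 4.84 CPM in m2cafpos, 32.9 ± 8.25 in m2cafneg, 28.0 ± 16.7 in icaf and 80.4 ± 21.6 in vcaf libraries, and Cenpe, a kinetochore motor, averaged 3.74, 4.99, 2.93 and 15.96 CPM.

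Regulators of the family were also described. Polycomb complexes are known to repress the Cdkn2a locus, and 9 of 10 listed subunit genes passed the F test, beside 73.0% of all genes. In m2cafpos against vcaf 8 were lower and 1 higher, beside 55.5% and 12.4%. After TMM scaling 3 were lower and 2 higher, beside 23.5% and 23.0%. Pcgf2, a subunit of the PRC1 complex, averaged 20.5 ± 0.790 CPM in m2cafpos, 14.7 ± 1.45 in m2cafneg, 10.2 ± 1.60 in icaf and 15.9 ± 1.05 in vcaf libraries (SD, n = 3 each), and was higher in m2cafpos than in each other gate, by 0.46, 0.95 and 0.35 on the log2 scale (adjusted p of 0.0286, 0.000297 and 0.0374 by limma). With the epithelial covariate the difference from icaf passed (adjusted p = 0.000213 by limma), and those from m2cafneg and vcaf did not (adjusted p of 0.1525 and 0.0936). Cbx2, another PRC1 subunit, was lowest in m2cafpos, at 1.56 CPM against 3.84 in m2cafneg, 5.31 in icaf and 7.63 in vcaf libraries. Suz12, a subunit of PRC2, averaged 2.94, 5.26, 3.65 and 10.5 CPM in the same order of gates. Eed, another PRC2 subunit, averaged 13.4, 17.04, 21.5 and 25.0 CPM. Both were lower in m2cafpos than in vcaf, at -1.54 and -0.86 (adjusted p of 0.000233 and 0.000643 by limma). The call was lost by limma for Suz12 with the epithelial covariate (adjusted p = 0.123) and for Eed with median-of-ratios scaling (adjusted p = 0.119). Against icaf, Suz12 did not pass (-0.24, adjusted p = 0.564 by limma) and Eed was lower in m2cafpos (-0.64, adjusted p = 0.0127). Of 10 genes tied to the transcription or turnover of p21 and p27, 10 passed the F test, beside 73.0% of all genes. In m2cafpos against vcaf 7 were lower and 2 higher, beside 55.5% and 12.4%. After TMM scaling 1 was lower and 2 were higher, beside 23.5% and 23.0%. Trp53, which encodes p53, averaged 144 ± 11.5 CPM in m2cafpos, 185 ± 7.98 in m2cafneg, 157 ± 5.72 in icaf and 238 ± 25.6 in vcaf libraries. With median-of-ratios scaling no pair of gates passed for Trp53. Foxo1, a factor known to act on Cdkn1b, averaged 10.6, 23.3, 20.9 and 26.5 CPM in the same order, and was lower in m2cafpos than in each other gate, at log2 fold changes of -1.06, -0.91 and -1.26 (adjusted p of 0.00498, 0.00664 and 0.000230 by limma). With the epithelial covariate the difference from icaf passed (adjusted p = 0.000671 by limma), and those from m2cafneg and vcaf did not (adjusted p of 0.570 and 0.338). Cks1b, a cofactor of SKP2 in p27 turnover, averaged 31.4, 43.5, 58.1 and 50.8 CPM. Klf4, a factor known to act on Cdkn1a, peaked in icaf at 237 ± 11.3 CPM, against 40.6 ± 7.82 in vcaf libraries, a log2 fold change of 2.53 (adjusted p = 7.28e-06 by limma). The RNA level of a regulator does not give its activity, and whether these genes act on the members here was not tested.

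The genes whose levels were most like each member over the 12 libraries were found by Pearson r on log2(CPM + 1), as a description. Cdkn2b was closest to Cpxm2, Dchs2 and Tnfrsf26 (r of 0.983, 0.981 and 0.979), which averaged 688, 7.29 and 109 CPM in m2cafpos and 29.8, 0.102 and 6.51 CPM in vcaf libraries. Cdkn2a was closest to Aqp2, Dusp14 and Golm1 (r of 0.987, 0.968 and 0.966), and the Aqp2 level was 31.6, 12.6, 0.977 and 0.634 CPM from m2cafpos through m2cafneg and icaf to vcaf. Cdkn2c was closest to Ppm1d, Amdhd2 and Arrb2 (r of 0.972, 0.963 and 0.961), and Cdkn2d to Phf5a, Padi3 and Ccdc77 (r of 0.961, 0.955 and 0.948). Cdkn1a was closest to Wwc2 and Fsd1 (r of 0.949 and 0.941), Cdkn1b to Chml and Atad2b (r of 0.980 and 0.977), and Cdkn1c to Tnfsf12, Prtg and Cntn1 (r of 0.948, 0.922 and 0.921). Among the members themselves, Cdkn1b had an r of 0.842 with Cdkn2c and 0.777 with Cdkn2d, and Cdkn2c had 0.809 with Cdkn2d. All 12 points of each r share mice and gates, and each r was taken on unscaled CPM. Cdkn1b, Cdkn2c and Cdkn2d were all highest in vcaf, a direction common among genes on that scale. No r on scaled values and no background of r over other pairs of genes was taken.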

How the data were processed

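RNA from 12 sorted libraries was measured as 1 table of gene CPM (read counts scaled to a library total of 1000000), deposited by the authors, with 1 column per library and 0 unused columns. Per the submitters' processing notes, bcl2fastq, DRAGEN and the mm10 build were used. Versions, the annotation, strand setting and treatment of multi-mapped reads were not given in the sources used here. The table had 55774 lines, of which 287 repeated a gene identifier with equal values, leaving 55487 genes. All values (100%) were whole multiples of what 1 read was worth within 0.001, so reads were recovered, and these ranged from 43898839 to 55363203 per library. Floors of 3 reads cover counting error only.

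Genes at 1 CPM or more in at least 3 libraries (15456, all 7 members) were tested with limma 3.58.1 in R 4.3.3 on log2(CPM + 1), with a trended prior, all 12 libraries and no scaling factors. Tests were two-sided, with Benjamini-Hochberg adjustment per comparison and a threshold of 0.05. An edgeR 4.0.16 quasi-likelihood test on the recovered reads with TMM factors called 8337 genes across the gates. Other alternatives were the pseudocount, the filter, TMM and median-of-ratios scaling, no trend, a block for the mouse, the summed epithelial markers as a covariate and each library left out. The main limma fit was tried on simulated counts, for m2cafpos against vcaf alone. These counts had independent libraries, the same dispersion for every gene and no mouse effect, unlike the data. The other fits were not tried on simulated counts. The main fit did not pair libraries of the same mouse. Its p-values measure the spread among libraries within gates, which come from 3 mice. With the block for the mouse, 33.2% of all genes passed for m2cafpos against m2cafneg, beside 26.1% without it.

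The numbers 27, 30 and 31 in the library names were read as mice, and the library titled 27_vacf as vcaf of mouse 27. Within-gate deviations of same-numbered libraries had a median correlation of 0.293 (0.0843 to 0.452, 18 pairs). For libraries of different mice it was -0.149 (36 pairs). Each gate was centred on its own mean, which makes the second value negative when the first is positive. The values are therefore not independent.

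Gene positions and exon lengths came from GENCODE M21 (GRCm38), and promoter windows from RefSeq. The members and gene lists were chosen with earlier results of these data known. Genes named from each pathway list were up to 4 with the smallest adjusted p of the F test, and those most like a member were the 3 named genes of highest r, of which some are not reported here. Antisense and overlapping genes cannot be separated without strand.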

Additional observations from a re-analysis of the deposited data

How the results depend on the processing

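The count of members past the F test was 7 in every leave-one-out fit and 5 to 7 under the other alternatives. Cdkn2a is included in it as a description where it was tested. For m2cafpos against m2cafneg the count of 2 became 0 with no filter, 0 with the epithelial covariate, and 1 with no trend, with edgeR and TMM and with edgeR without scaling factors. For m2cafneg against icaf the count of 3 became 1 with either edgeR fit and with the epithelial covariate. For m2cafneg against vcaf the count of 7 became 3 with TMM, 3 with the median of ratios and 2 with edgeR and TMM. For icaf against vcaf the count of 5 became 1 with the epithelial covariate. That sum differs by gate, and calls over all genes were lower with it too. They were 208 genes against 4041 without it for m2cafpos against m2cafneg, 542 against 4594 for m2cafneg against icaf and 3126 against 9265 for icaf against vcaf. Leaving out 1 library gave 0 to 2 members for m2cafpos against m2cafneg, 3 to 3 for m2cafpos against icaf, 5 to 6 for m2cafpos against vcaf, 1 to 3 for m2cafneg against icaf, 5 to 7 for m2cafneg against vcaf and 4 to 5 for icaf against vcaf. With the replicate block for the mouse, the numbers paired the libraries and the counts were 2, 3, 6, 4, 7 and 5 in the order of pairs used for the medians of all genes. Only Cdkn1c changed calls under the block.

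The 4 Cdkn2b differences of m2caf gates from icaf and vcaf passed under all 23 alternatives, with log2 fold changes between 2.52 and 4.34. Reversed values, none of which passed in either direction, were these. Cdkn2a for icaf over vcaf was 0.13 with a pseudocount of 0.1, 0.030 with TMM, 0.030 with the median of ratios, 0.10 with edgeR and TMM and 0.50 with the epithelial covariate. Cdkn2b for icaf over vcaf was -0.017 with a pseudocount of 0.1. Cdkn2c for m2cafpos over m2cafneg was 0.20 with TMM, 0.22 with the median of ratios and 0.17 with edgeR and TMM. Cdkn2d was 0.11, 0.13 and 0.11 for m2cafpos over m2cafneg and 0.13, 0.13 and 0.13 over icaf in the same order. Leaving out 1 library gave -0.12 to 0.12 for Cdkn1a in m2cafpos over vcaf, -0.17 to 0.15 for Cdkn2a and -0.41 to 0.36 for Cdkn2b in icaf over vcaf, -0.28 to 0.16 for Cdkn2c in m2cafpos over m2cafneg and -0.11 to 0.10 for Cdkn2d in m2cafpos over icaf. The cause was not tested. A filter of 5 CPM leaves Cdkn2a untested, and its few reads limit that gene.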

Other observations

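Neighbours of other members held values that belong to no comparison above. On chromosome 6, Gpr19, a receptor gene 21822 bases from Cdkn1b, averaged 2.54 ± 0.232 CPM in m2cafpos, 4.18 ± 1.16 in m2cafneg, 2.77 ± 1.497 in icaf and 13.1 ± 1.69 in vcaf libraries (SD, n = 3 each). Apold1, on the other side at 56204 bases, averaged 3.28, 9.84, 2.19 and 177 CPM in the same order. Both flanking genes were highest in vcaf on average, as Cdkn1b was, a direction common among genes on the CPM scale. Of all genes tested by limma, 55.5% were lower in m2cafpos than in vcaf, 26.6% in m2cafneg and 46.1% in icaf. Around Cdkn1c on chromosome 7, Kcnq1 averaged 0.682, 3.29, 0.920 and 6.48 CPM and Slc22a18 averaged 3.81, 5.74, 10.8 and 4.29 CPM, and neither was lowest in vcaf as Cdkn1c was. Of 8 listed neighbours in that imprinted cluster, 5 passed the F test by limma, below the 73.0% of all genes. Phlda2, which restrains placental growth, averaged 0.266 ± 0.0201 CPM in m2cafpos, 2.39 ± 0.980 in m2cafneg, 0.702 ± 0.112 in icaf and 2.61 ± 1.03 in vcaf libraries. Ap1m2, 2867 bases from Cdkn2d, averaged 13.6, 53.02, 11.4 and 66.6 CPM, and was high in the 2 gates where the epithelial sum was high, m2cafneg and vcaf.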
